A study of Homo sapiens with 6 samples.

Results

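The 35 genes described here encode the enzymes, regulators and carriers of cholesterol and fatty acid synthesis. They were taken by gene symbol from the table of 19755 protein-coding genes. Each symbol matched 1 gene, and all 35 genes were among the 12068 with a mean of at least 0.5 FPKM (fragments scaled to transcript length and to the number mapped) that were tested. Of the 35 genes, 21 form the SREBF2-type list of cholesterol synthesis, sterol feedback and sterol transport. A further 9 form the SREBF1-type list of fatty acid and glycerolipid synthesis. The other 5 are the regulators SREBF1, SREBF2, SCAP and INSIG2 and the efflux transporter ABCA1. RNA came from cells labelled EA.hy926, an established hybrid of an umbilical vein endothelial cell and the lung carcinoma line A549, although the titles also name umbilical vein endothelial cells. The LPS group is 3 libraries from cells given lipopolysaccharide, a cell wall component of Gram-negative bacteria that sets off inflammatory signalling. The dose was 1000 ng/ml and the time 12 h, with the genotype field reading LPS-induced. The control group is 3 libraries titled control at 12 h, with the genotype field reading WT. All cells were grown in DMEM with fetal bovine serum and antibiotics. The treatment field reads the same for both groups, so groups were taken from the titles. Nothing in the labels shows separate cultures behind the replicates. The p-values therefore reflect library-to-library spread, which could be technical.

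SREBF1 and SREBF2 encode the sterol regulatory element binding proteins (SREBPs), transcription factors made as membrane proteins of the endoplasmic reticulum. SCAP is the sterol sensor that carries them to the Golgi, where proteases release their DNA-binding part, and the INSIG proteins hold SCAP back while sterols are plentiful. SREBP-2 chiefly drives cholesterol synthesis and SREBP-1 fatty acid synthesis, with overlap between them. Many of their target promoters also carry a CCAAT box, the site of the cofactor NF-Y. ABCA1 works in the opposite direction, moving cholesterol out of the cell, and is switched on by the sterol-sensing liver X receptors.

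Promoters of 31 of the 35 genes were matched by symbol in a RefSeq table on GRCh38.p14, which gives 250 bases before and 50 bases after each gene start. The entries for FASN, ACAT2, SQLE and FDFT1 are missing. The letters CCAAT or ATTGG, the same box on the other strand, were found in 21 of the 31 genes, or 67.7%. They were found in 43.2% of the 9563 tested genes with an entry and in 34.6% of all 35116 entries. By list, 15 of 18 SREBF2-type and 5 of 8 SREBF1-type genes held them. Some of the 31 genes have several entries, and a gene was counted if any of its entries held the letters. Shares of all entries count each entry on its own. Of the genes printed below only HMGCS1 has another entry, in which CCAAT or ATTGG was not found. The sterol regulatory element TCACCCCAC (GTGGGGTGA on the other strand) was found in SREBF2 and in none of the other 30 matched genes. It was found in 0.575% of tested genes and 0.430% of all entries. The looser form TCACNCCAC, which contains it, was also in SREBF2 alone, against 1.52% of tested genes and 1.13% of all entries. The E-box CACGTG, which reads the same on both strands, was in 5 of the 31 genes, against 12.7% of tested genes and 7.26% of all entries. A match says only that the letters are present in this window. The following promoters show the box in a regulator, in 4 cholesterol genes and in a fatty acid gene, with CCAAT or ATTGG and, in SREBF2, the sterol regulatory element in capitals, while the E-box is not marked. They lie at chr22:41832855-41833154 on the plus strand for SREBF2, chr5:43313363-43313662 on the minus strand for HMGCS1, chr16:88663042-88663341 on the minus strand for MVD, chr1:155308616-155308915 on the plus strand for FDPS, chr7:155297628-155297927 on the plus strand for INSIG1 and chr10:100346983-100347282 on the plus strand for SCD.
SREBF2: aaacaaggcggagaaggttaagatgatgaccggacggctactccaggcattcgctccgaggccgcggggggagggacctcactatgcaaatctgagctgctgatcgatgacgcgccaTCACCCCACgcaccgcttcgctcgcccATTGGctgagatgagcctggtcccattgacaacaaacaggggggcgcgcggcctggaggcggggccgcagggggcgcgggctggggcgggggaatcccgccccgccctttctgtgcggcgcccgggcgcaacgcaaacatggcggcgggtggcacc
HMGCS1: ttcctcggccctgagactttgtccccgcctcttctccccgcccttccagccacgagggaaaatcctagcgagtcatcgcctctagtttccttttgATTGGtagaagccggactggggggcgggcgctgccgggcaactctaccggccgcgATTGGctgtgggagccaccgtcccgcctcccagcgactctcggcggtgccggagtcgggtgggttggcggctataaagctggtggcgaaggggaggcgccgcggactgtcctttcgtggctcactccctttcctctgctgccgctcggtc
MVD: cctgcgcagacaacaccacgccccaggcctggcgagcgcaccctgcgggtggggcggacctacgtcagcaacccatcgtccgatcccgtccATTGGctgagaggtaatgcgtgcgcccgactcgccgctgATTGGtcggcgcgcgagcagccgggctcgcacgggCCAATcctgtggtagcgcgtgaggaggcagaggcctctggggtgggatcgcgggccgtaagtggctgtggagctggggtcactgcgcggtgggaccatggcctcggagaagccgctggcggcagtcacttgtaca
FDPS: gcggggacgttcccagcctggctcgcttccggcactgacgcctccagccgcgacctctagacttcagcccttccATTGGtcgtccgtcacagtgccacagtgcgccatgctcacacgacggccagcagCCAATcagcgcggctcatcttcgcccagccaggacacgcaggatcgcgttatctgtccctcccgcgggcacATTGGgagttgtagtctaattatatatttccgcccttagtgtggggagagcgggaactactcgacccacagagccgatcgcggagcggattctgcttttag
INSIG1: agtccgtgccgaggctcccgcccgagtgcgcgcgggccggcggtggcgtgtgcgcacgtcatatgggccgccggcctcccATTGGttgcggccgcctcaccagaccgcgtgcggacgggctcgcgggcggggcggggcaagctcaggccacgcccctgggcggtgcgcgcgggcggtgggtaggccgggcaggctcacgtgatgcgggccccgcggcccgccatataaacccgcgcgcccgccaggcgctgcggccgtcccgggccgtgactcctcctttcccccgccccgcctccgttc
SCD: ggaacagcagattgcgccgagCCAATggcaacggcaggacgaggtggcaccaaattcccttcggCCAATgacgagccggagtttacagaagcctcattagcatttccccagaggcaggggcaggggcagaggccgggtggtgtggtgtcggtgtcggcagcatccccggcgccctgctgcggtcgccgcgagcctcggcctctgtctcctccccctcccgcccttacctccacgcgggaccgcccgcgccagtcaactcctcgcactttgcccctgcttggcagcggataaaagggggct

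The FPKM of all protein-coding genes summed to 256257 to 264878 in LPS libraries and to 256047 to 260730 in control libraries. FPKM carries no read depth, so the depth behind each value is unknown. The interferon-stimulated gene MX1, taken as a check of the labels, stood at 22.4, 8.68 and 9.56 FPKM in LPS 1, 2 and 3, against 0.815, 1.12 and 0.608 FPKM in control 1, 2 and 3, with no overlap. MX1 is 1 of 8 LPS response genes listed, and they did not all move alike. ISG15, ICAM1, CCL2 and SELE were also higher in all LPS libraries than in all controls. CXCL8 overlapped, at 226, 149 and 137 FPKM in LPS 1, 2 and 3 and 128, 132 and 151 FPKM in control 1, 2 and 3. IL6 and VCAM1 were lower with LPS, with no overlap. All 10 endothelial markers were expressed, with sums of 518, 565 and 436 FPKM in LPS 1, 2 and 3 and 460.5, 477 and 363 FPKM in control 1, 2 and 3. Of 10 epithelial and A549 markers 4 reached a mean of 0.5 FPKM, and these were the keratins KRT7, KRT8, KRT18 and KRT19. In that order they averaged 23.8, 16.2, 41.4 and 23.1 FPKM with LPS and 17.0, 20.3, 58.9 and 34.0 FPKM in controls. EPCAM, CDH1 and NKX2-1 were each at 0.1 FPKM or less in every library. Of 10 fibroblast and smooth muscle markers 8 reached a mean of 0.5 FPKM, while MYH11 and DES stayed below it in every library. The sums, carried mainly by COL1A1, COL1A2 and COL3A1, were 4293, 4073 and 3761 FPKM in LPS 1, 2 and 3 and 4264, 4141 and 3911 FPKM in control 1, 2 and 3. Of 10 leukocyte markers 1 reached a mean of 0.5 FPKM, and this was CD68. It stood at 4.30, 4.36 and 6.45 FPKM in LPS 1, 2 and 3 and at 6.49, 7.61 and 3.70 FPKM in control 1, 2 and 3. PTPRC, the pan-leukocyte marker, was listed at 0 in all 6 libraries. Over all genes tested, LPS 3 correlated at 0.971 (Pearson) with both LPS 1 and LPS 2. Other pairs within a group stood at 0.974 to 0.976. LPS 3 also had the largest FPKM sum, 264878. It stands apart in the genes described here too, as shown after the group comparison. The counts, list medians and many of the single changes are given with and without LPS 3.

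Cholesterol and fatty acid synthesis genes did not pass the test between LPS and control libraries. With limma on log2(FPKM + 0.5), 0 of the 35 genes reached an adjusted p under 0.05, against 0.058% of all genes tested. Before adjustment, 0 of the 35 had a p under 0.05, against 10.4% of all genes. The smallest p among the 35 was 0.0931, for FDFT1, with an adjusted p of 0.544. The 3 LPS and 3 control values did not overlap in 1 of the 35 genes, INSIG2, against 17.4% of all genes. In bulk RNA, fewer cells of a type and less RNA per cell cannot be told apart.

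The data bound the size of a change more tightly for some genes than for others. The log2 change was below 0.5 in size in 34 of the 35 genes, the exception being FADS2, and every 95% interval held 0. In 27 genes the interval lay within −1 to 1, so that a doubling or halving of FPKM + 0.5 lies outside it. The half-width of the interval was 0.23 at the narrowest, for SREBF2, and 0.89 at the widest, for EBP, with a median of 0.47. Log2 changes on this scale understate changes of low genes such as TM7SF2.

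**Figure D1:**
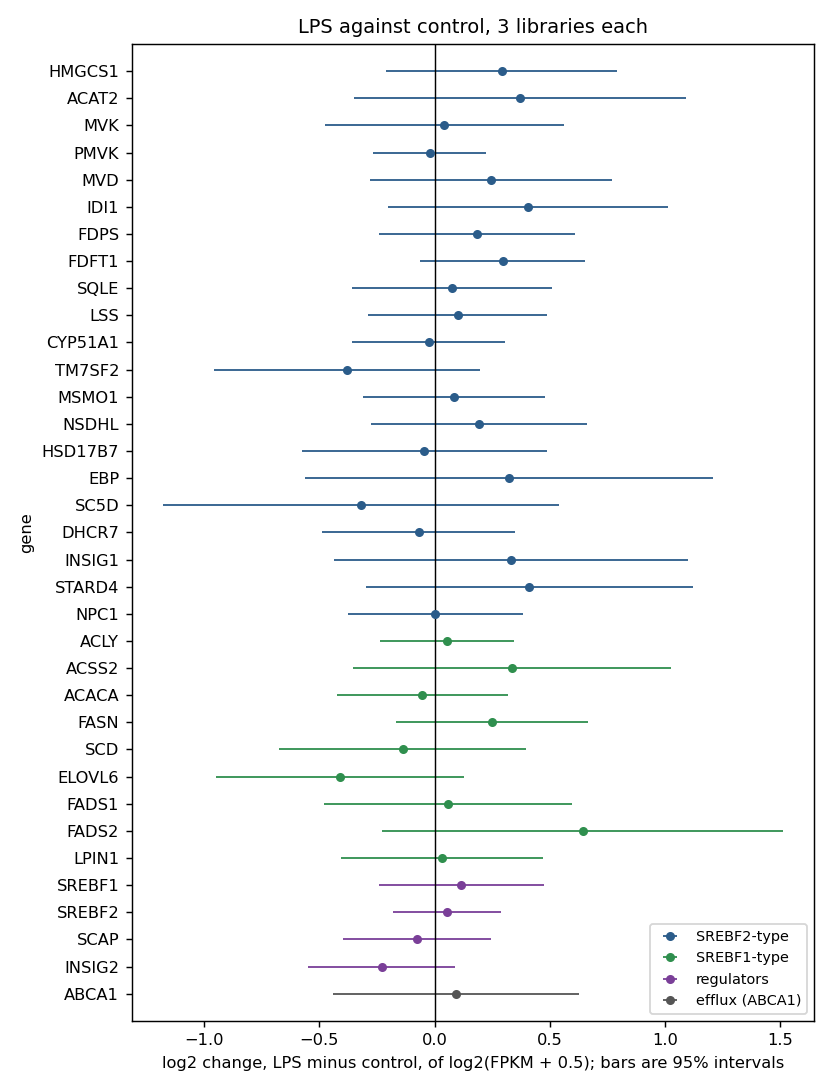
Log2 change, LPS minus control, of log2(FPKM + 0.5) for each gene (points) with its 95% interval from limma (bars), 3 libraries per group. All 35 intervals cross 0, and FADS2 is the only gene past 0.5.

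The signs leaned upward with all libraries and downward without LPS 3. The log2 change was positive in 24 genes and negative in 11, with a median of 0.076, while 47.8% of all genes tested were positive, with a median of −0.011. Without LPS 3, 9 were positive and 26 negative, with a median of −0.049, while 43.2% of all genes were positive, with a median of −0.038. In that smaller comparison SCD alone had an unadjusted p under 0.05, against 10.1% of all genes. Its unadjusted p was 0.00443 (adjusted p = 0.358 by limma).

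LPS 3 was the highest of the 6 libraries in 28 of the 35 genes, or 80.0%, against 25.7% of all genes tested. The exceptions were PMVK, TM7SF2, DHCR7 and INSIG2, highest in control 1, STARD4, highest in LPS 1, SCAP, highest in control 2, and ELOVL6, highest in control 3. By list, 17 of 21 SREBF2-type and 8 of 9 SREBF1-type genes were highest in LPS 3. The level in LPS 3 divided by the median of the other 5 libraries had a median of 1.39 over the 35 genes and 1.05 over all genes tested. The largest ratios were 2.53 for FADS2, 2.07 for ACSS2, 1.88 for INSIG1 and 1.84 for ACAT2, and the smallest were 0.693 for TM7SF2 and 0.772 for INSIG2. Summed over the 35 genes, FPKM came to 802, 737 and 1166 in LPS 1, 2 and 3, against 861, 748 and 832 in control 1, 2 and 3. LPS 1 and LPS 2 thus lie within or below the control range and LPS 3 above it. The lowest library was control 2 in 12 genes, or 34.3%, against 20.1% of all genes tested. It was LPS 2 in 11 genes, or 31.4%, against 21.9% of all genes tested.

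**Figure D2:**
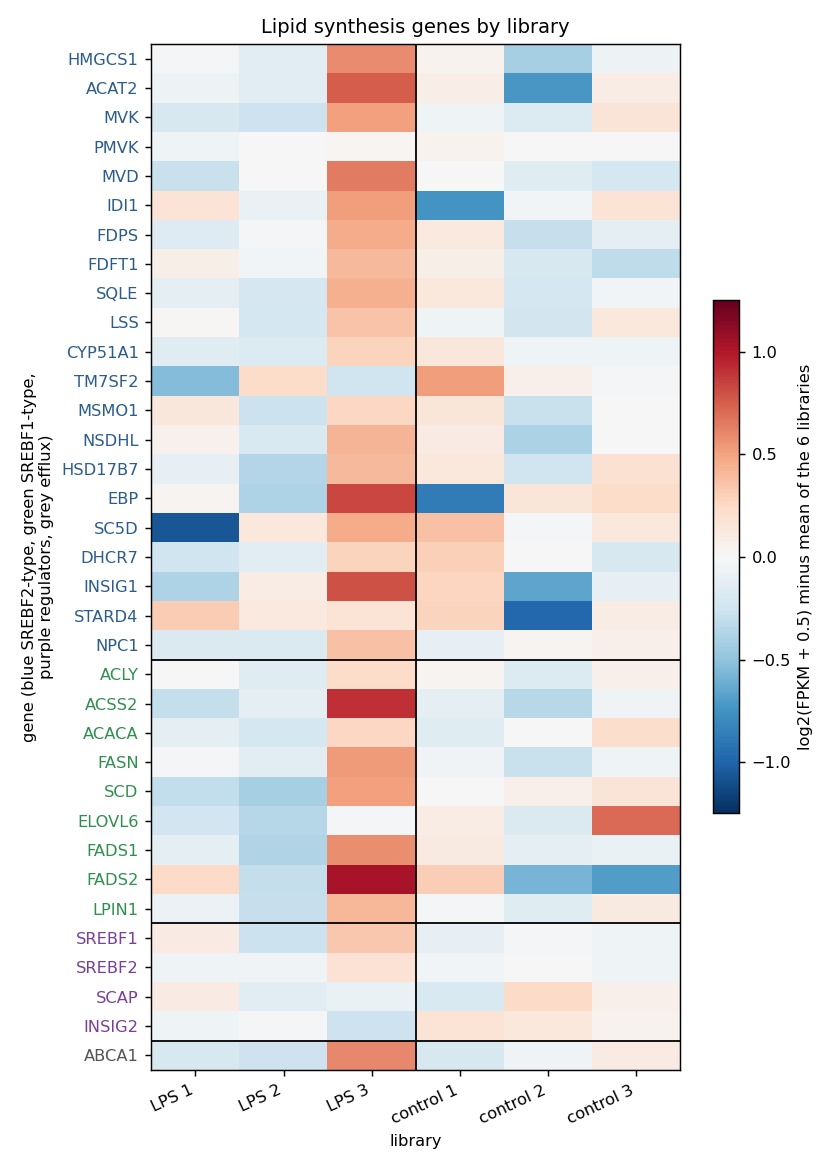
Log2(FPKM + 0.5) of each gene (rows) in each library (columns) minus the mean of the 6 libraries, as colour from blue (low) to red (high). The LPS 3 column is red in most rows of both lists, while LPS 1 and LPS 2 are mostly pale or blue.

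The LPS response genes and the markers of cell type had another order across libraries. Summed over 8 LPS response genes (MX1, ISG15, ICAM1, CCL2, CXCL8, IL6, SELE and VCAM1), the level was 496, 328 and 299.7 FPKM in LPS 1, 2 and 3 and 239, 240.2 and 261 FPKM in control 1, 2 and 3, highest in LPS 1. IL6 and VCAM1 were lower in all LPS libraries than in all controls. LPS 3 had the lowest endothelial sum among LPS libraries and the lowest fibroblast and smooth muscle sum of all 6. Its epithelial and A549 sum, 115 FPKM, was the highest of the LPS libraries, where the others stood at 91.6 and 109, but below 125, 138 and 128 FPKM in control 1, 2 and 3. The part of these markers in the level of LPS 3 was not tested.

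The early SREBF2-type genes make isoprenoid units from acetyl-CoA. HMGCS1, the synthase that makes the precursor of mevalonate, stood at 10.7, 9.80 and 16.6 FPKM in LPS 1, 2 and 3, against 11.1, 7.98 and 10.4 FPKM in control 1, 2 and 3 (log2 change 0.29, 95% interval −0.21 to 0.79, limma adjusted p = 0.687). ACAT2, the thiolase before it, stood at 5.20, 4.91 and 9.58 FPKM in LPS 1, 2 and 3, against 5.80, 3.09 and 5.87 FPKM in control 1, 2 and 3. In both genes LPS 3 was highest and control 2 lowest, and the groups overlapped. Without LPS 3 the log2 change was 0.068 for HMGCS1 and 0.083 for ACAT2, against 0.37 for ACAT2 with it. The kinases that follow differed in their spread. MVK, mevalonate kinase, stood at 4.23, 4.05 and 7.26 FPKM in LPS 1, 2 and 3, against 4.73, 4.33 and 5.56 FPKM in control 1, 2 and 3. PMVK, phosphomevalonate kinase, stood at 6.48, 6.69 and 6.86 FPKM in LPS 1, 2 and 3, against 6.95, 6.68 and 6.72 FPKM in control 1, 2 and 3. PMVK was the steadiest of the 35 genes, with its highest library 1.07 times its lowest, whereas that ratio was 1.79 for MVK. MVD, the decarboxylase that yields isopentenyl diphosphate, stood at 11.2, 13.6 and 21.7 FPKM in LPS 1, 2 and 3, against 13.7, 12.2 and 11.7 FPKM in control 1, 2 and 3. Without LPS 3 its log2 change was −0.017, against 0.25 with it. IDI1, the isomerase of that product, stood at 8.65, 7.21 and 11.2 FPKM in LPS 1, 2 and 3, against 4.34, 7.45 and 8.69 FPKM in control 1, 2 and 3, so that control 1 stood apart as the lowest. The log2 change of IDI1 was 0.41, 0.25 without LPS 3 and 0.13 without control 1.

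The next enzymes build farnesyl diphosphate and squalene. FDPS, farnesyl diphosphate synthase and the most abundant SREBF2-type gene, stood at 34.96, 38.6 and 54.2 FPKM in LPS 1, 2 and 3, against 42.8, 31.9 and 36.3 FPKM in control 1, 2 and 3 (log2 change 0.18, 95% interval −0.24 to 0.61, limma adjusted p = 0.762). LPS 3 was above all controls, while LPS 1 and LPS 2 lay among them, and without LPS 3 the log2 change was −0.00020. FDFT1, squalene synthase and the first step committed to sterols, stood at 31.6, 29.4 and 40.2 FPKM in LPS 1, 2 and 3, against 31.7, 26.1 and 24.2 FPKM in control 1, 2 and 3 (log2 change 0.29, 95% interval −0.063 to 0.65, limma adjusted p = 0.544). Its groups overlapped only through control 1, and without control 1 its unadjusted p was 0.0388 (adjusted p = 0.479 by limma). Without LPS 3 the log2 change of FDFT1 was 0.16, with an unadjusted p of 0.283 (adjusted p = 0.704 by limma). SQLE, squalene epoxidase, averaged 25.9 ± 6.82 FPKM with LPS and 24.2 ± 3.03 FPKM in controls (SD, n = 3 each). LSS, which closes the sterol rings as lanosterol synthase, averaged 21.9 ± 4.50 FPKM with LPS and 20.2 ± 2.62 FPKM in controls (SD, n = 3 each). In these last genes the difference between means was smaller than the SD of either group.

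The enzymes that turn lanosterol into cholesterol did not pass the test, and their spread between libraries was uneven. CYP51A1, the lanosterol demethylase, averaged 25.6 ± 4.74 FPKM with LPS and 25.8 ± 2.03 FPKM in controls (SD, n = 3 each; log2 change −0.026, 95% interval −0.36 to 0.31, limma adjusted p = 0.964). MSMO1, the methylsterol monooxygenase, stood at 37.6, 28.2 and 40.8 FPKM in LPS 1, 2 and 3, against 37.9, 28.0 and 34.2 FPKM in control 1, 2 and 3 (log2 change 0.084, 95% interval −0.31 to 0.48, limma adjusted p = 0.896). The groups of MSMO1 covered nearly the same range. NSDHL, a sterol dehydrogenase, averaged 6.12 ± 1.45 FPKM with LPS and 5.26 ± 0.987 FPKM in controls, HSD17B7, the ketosteroid reductase, 2.51 ± 0.839 FPKM with LPS and 2.55 ± 0.477 FPKM in controls, and DHCR7, the last reductase of the pathway, 15.1 ± 3.09 FPKM with LPS and 15.8 ± 2.82 FPKM in controls (SD, n = 3 each). In none of them was the difference larger than the SD of both groups. EBP, the sterol isomerase, stood at 10.3, 7.60 and 18.3 FPKM in LPS 1, 2 and 3, against 5.26, 11.3 and 11.9 FPKM in control 1, 2 and 3, a 3.48-fold span set by LPS 3 and control 1. Without LPS 3 the log2 change was 0.028 for NSDHL and −0.013 for EBP, against 0.19 for NSDHL and 0.32 for EBP with it. SC5D, the sterol desaturase, stood at 0.831, 2.54 and 3.33 FPKM in LPS 1, 2 and 3, against 3.08, 2.26 and 2.56 FPKM in control 1, 2 and 3, so that LPS 1 alone was low. Without LPS 1 the sign of SC5D turned, with a log2 change of 0.13, against −0.32 with it. TM7SF2, a sterol reductase, was the least abundant gene and stood at 0.406, 1.04 and 0.606 FPKM in LPS 1, 2 and 3, against 1.40, 0.875 and 0.801 FPKM in control 1, 2 and 3 (log2 change −0.38, 95% interval −0.96 to 0.20, limma adjusted p = 0.640). Its unadjusted p was 0.0438 without LPS 2 (adjusted p = 0.484 by limma), while its log2 change was −0.20 without LPS 1 and −0.21 without control 1, with unadjusted p-values of 0.451 and 0.447 (adjusted p = 0.857 and 0.831 by limma).

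The remaining SREBF2-type genes act in sterol feedback and sterol transport. INSIG1, a retention protein for SCAP that is itself an SREBP target, stood at 20.6, 29.1 and 47.5 FPKM in LPS 1, 2 and 3, against 32.9, 17.1 and 25.2 FPKM in control 1, 2 and 3 (log2 change 0.33, 95% interval −0.44 to 1.10, limma adjusted p = 0.763). The control values alone spanned 17.1 to 32.9 FPKM, LPS 1 lay inside that span, and LPS 3 lay above it. Without LPS 3 the log2 change of INSIG1 was 0.017. STARD4, a carrier of sterol between membranes, stood at 16.8, 14.6 and 15.1 FPKM in LPS 1, 2 and 3, against 16.3, 6.49 and 14.2 FPKM in control 1, 2 and 3, so that control 2 alone was low, and without it the log2 change was 0.023, against 0.41 with it. NPC1, which exports cholesterol from lysosomes, stood at 16.4, 16.3 and 24.2 FPKM in LPS 1, 2 and 3, against 17.3, 19.0 and 19.5 FPKM in control 1, 2 and 3 (log2 change 0.0037, 95% interval −0.38 to 0.38, limma adjusted p = 0.997). The sign of NPC1 changed without LPS 3, where the log2 change was −0.18, and under quantile normalization, where it was −0.0017.

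Among SREBF1-type genes the most abundant were SCD and ACLY. SCD, the desaturase that makes oleate and palmitoleate, stood at 89.4, 82.9 and 158 FPKM in LPS 1, 2 and 3, against 109.9, 115 and 124 FPKM in control 1, 2 and 3 (log2 change −0.14, 95% interval −0.67 to 0.40, limma adjusted p = 0.866). LPS 1 and LPS 2 lay below all 3 controls and LPS 3 above them. Without LPS 3 the log2 change was −0.43, and it did not pass the adjustment. ACLY, which makes cytosolic acetyl-CoA from citrate, stood at 105, 94.7 and 123 FPKM in LPS 1, 2 and 3, against 108, 93.1 and 109.6 FPKM in control 1, 2 and 3 (log2 change 0.053, 95% interval −0.24 to 0.34, limma adjusted p = 0.911). ACSS2, which makes acetyl-CoA from acetate, stood at 14.9, 17.1 and 35.2 FPKM in LPS 1, 2 and 3, against 17.0, 14.4 and 17.9 FPKM in control 1, 2 and 3 (log2 change 0.34, 95% interval −0.35 to 1.03, limma adjusted p = 0.736), with LPS 3 at 2.07 times the median of the other 5 libraries and a log2 change of −0.036 without LPS 3. ACACA, the carboxylase that makes malonyl-CoA, averaged 15.0 ± 2.80 FPKM with LPS and 15.5 ± 2.07 FPKM in controls, and FASN, fatty acid synthase, 83.2 ± 21.7 FPKM with LPS and 68.6 ± 6.08 FPKM in controls (SD, n = 3 each). FASN was highest in LPS 3, at 108 FPKM, while LPS 1 and LPS 2, at 74.1 and 67.5 FPKM, were near the controls. The log2 change of FASN was 0.25, and 0.046 without LPS 3.

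The genes that lengthen, desaturate or use fatty acids include the one with the largest change. FADS2, the first desaturase of polyunsaturated fatty acids, had the largest log2 change of the 35 genes and stood at 57.2, 39.2 and 99.4 FPKM in LPS 1, 2 and 3, against 60.3, 32.2 and 29.8 FPKM in control 1, 2 and 3 (log2 change 0.64, 95% interval −0.23 to 1.51, limma adjusted p = 0.595). Control 1 overlapped LPS 1 and LPS 2, and the highest library was 3.34 times the lowest. Its unadjusted p was 0.0304 without control 1 and 0.0354 without LPS 2 (adjusted p = 0.456 and 0.467 by limma), and without LPS 3 its log2 change was 0.29. FADS1, its neighbour and the next desaturase, stood at 21.8, 18.2 and 35.7 FPKM in LPS 1, 2 and 3, against 25.6, 21.9 and 22.3 FPKM in control 1, 2 and 3 (log2 change 0.059, 95% interval −0.48 to 0.60, limma adjusted p = 0.949). ELOVL6, the elongase of palmitate, stood at 4.56, 4.17 and 5.36 FPKM in LPS 1, 2 and 3, against 5.86, 4.75 and 9.24 FPKM in control 1, 2 and 3 (log2 change −0.41, 95% interval −0.95 to 0.13, limma adjusted p = 0.580). Control 3 of ELOVL6 was far above the rest, and without it the log2 change was −0.16. Its unadjusted p was 0.0298 without control 2 and 0.0412 with the replicate number as a block (adjusted p = 0.543 and 0.4 by limma). LPIN1, the phosphatidate phosphatase of glycerolipid synthesis, averaged 10.1 ± 2.74 FPKM with LPS and 9.70 ± 0.938 FPKM in controls (SD, n = 3 each).

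The SREBF2-type and SREBF1-type lists were both highest in LPS 3, and neither held a gene past the test. The median log2 change was 0.10 over the 21 SREBF2-type genes, of which 15 were positive, and 0.053 over the 9 SREBF1-type genes, of which 6 were positive. Without LPS 3 the medians were −0.023 (7 of 21 positive) and −0.16 (2 of 9 positive). Relative to the mean of the 6 libraries, the SREBF2-type median on the log2 scale was −0.10, −0.14 and 0.43 in LPS 1, 2 and 3, against 0.10, −0.20 and 0.0020 in control 1, 2 and 3. The SREBF1-type median was −0.11, −0.29 and 0.51 in LPS 1, 2 and 3, against −0.0092, −0.18 and 0.059 in control 1, 2 and 3. In both lists LPS 3 was highest and LPS 1, LPS 2 and control 2 were below 0. The median over all genes tested lay between −0.042 and 0.054 in every library. The SD of the library medians within groups was 0.25 for the SREBF2-type and 0.31 for the SREBF1-type list, larger than either median log2 change. The difference between the lists was not tested.

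**Figure D3:**
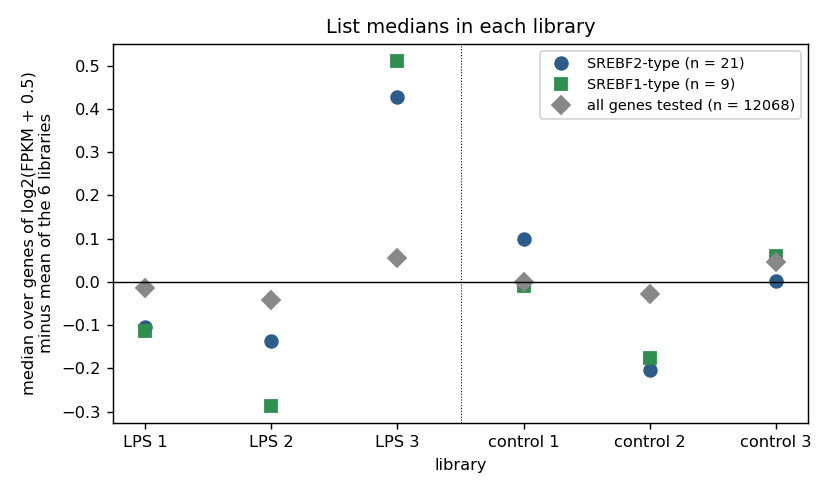
Median over the genes of each list (21 SREBF2-type, blue circles; 9 SREBF1-type, green squares) and over all 12068 genes tested (grey diamonds) of log2(FPKM + 0.5) minus the mean of the 6 libraries. Both lists lie far above all genes in LPS 3 and near or below them in LPS 1, LPS 2 and control 2.

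None of the regulators passed the test. SREBF2 stood at 33.5, 33.8 and 39.7 FPKM in LPS 1, 2 and 3, against 34.1, 34.9 and 33.6 FPKM in control 1, 2 and 3 (log2 change 0.054, 95% interval −0.18 to 0.29, limma adjusted p = 0.885), and its highest library was 1.18 times its lowest. SREBF1 stood at 33.3, 25.8 and 39.5 FPKM in LPS 1, 2 and 3, against 28.97, 30.7 and 30.0 FPKM in control 1, 2 and 3 (log2 change 0.11, 95% interval −0.24 to 0.47, limma adjusted p = 0.827). LPS 2 was below and LPS 3 above all control values of SREBF1, and without LPS 3 its log2 change was −0.026. SCAP stood at 19.5, 16.4 and 17.0 FPKM in LPS 1, 2 and 3, against 15.8, 21.5 and 18.9 FPKM in control 1, 2 and 3 (log2 change −0.077, 95% interval −0.40 to 0.24, limma adjusted p = 0.881), with overlapping groups. INSIG2, the other retention protein for SCAP, stood at 2.38, 2.42 and 1.99 FPKM in LPS 1, 2 and 3, against 2.85, 2.77 and 2.57 FPKM in control 1, 2 and 3 (log2 change −0.23, 95% interval −0.55 to 0.089, limma adjusted p = 0.602). All LPS values of INSIG2 were below all control values, as in 8.73% of all genes tested. LPS 3 was the lowest, and without it the log2 change was −0.15. ABCA1 stood at 18.9, 18.1 and 33.2 FPKM in LPS 1, 2 and 3, against 18.8, 21.1 and 23.4 FPKM in control 1, 2 and 3 (log2 change 0.094, 95% interval −0.44 to 0.63, limma adjusted p = 0.915). LPS 3 was the highest library for ABCA1 as it was for most synthesis genes, and without it the log2 change was −0.18.

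SREBF2 and SREBF1 each hold a microRNA gene, MIR33A and MIR33B, whose products are known to repress ABCA1. The mature sequences, from RefSeq on GRCh38.p14, are shown because they share the seed, bases 2 to 8, in capitals.
hsa-miR-33a-5p: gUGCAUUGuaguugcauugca
hsa-miR-33b-5p: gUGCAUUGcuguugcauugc
In the table of all annotated genes MIR33A was listed at 0.197 FPKM in LPS 2 and at 0 in the other 5 libraries. MIR33B was at 0, 0.0267 and 0.298 FPKM in LPS 1, 2 and 3, against 0.0614, 0.0505 and 0 FPKM in control 1, 2 and 3. These are reads assigned to the small genes and are not a measure of the mature microRNAs.

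Which transcript of a gene was most abundant often differed between libraries of the same group. Of 449 transcripts listed for the 35 genes, 32 of them assembled by the authors without an Ensembl identifier, 203 were in the protein-coding transcript table and 83 of those were tested. An adjusted p under 0.05 was reached by 0 of the 83, against 0.126% of all 20563 transcripts tested, and an unadjusted p under 0.05 by 2, against 6.44%. LSS-205, the more abundant of these, stood at 5.21, 12.2 and 7.33 FPKM in LPS 1, 2 and 3, against 4.42, 3.79 and 1.98 FPKM in control 1, 2 and 3 (log2 change 1.15, 95% interval 0.15 to 2.14, limma adjusted p = 0.729). It was higher in every LPS library, while LSS as a gene was not. The other, FDPS-206, averaged under 1 FPKM. The most abundant transcript was the same in all 6 libraries for 16 genes and differed between libraries for 19. For SREBF1 it was SREBF1-204 in LPS 1, control 1 and control 3, SREBF1-201 in LPS 2, and SREBF1-202 in LPS 3 and control 2. SREBF1-202 stood at 1.65, 0 and 14.1 FPKM in LPS 1, 2 and 3, against 1.79, 11.4 and 4.89 FPKM in control 1, 2 and 3, and SREBF1-201 at 3.38, 11.5 and 4.54 FPKM in LPS 1, 2 and 3, against 5.38, 4.14 and 5.49 FPKM in control 1, 2 and 3, with no order by group. SREBF2 was carried by SREBF2-201, at 32.8, 32.9 and 38.3 FPKM in LPS 1, 2 and 3, against 33.2, 34.0 and 32.5 FPKM in control 1, 2 and 3. SREBF1-204 stood at 14.0, 4.43 and 3.41 FPKM in LPS 1, 2 and 3, against 6.93, 2.74 and 8.62 FPKM in control 1, 2 and 3.

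The high level of INSIG1 in LPS 3 lay in part in an assembled transcript, which held a like share of the gene in control 3. That transcript stood at 2.44, 0 and 21.4 FPKM in LPS 1, 2 and 3, against 0, 1.32 and 11.6 FPKM in control 1, 2 and 3. Its share of INSIG1 was 45.1% in LPS 3 and 45.9% in control 3. INSIG1-201 stood at 15.5, 23.9 and 23.3 FPKM in LPS 1, 2 and 3, against 28.5, 12.6 and 12.0 FPKM in control 1, 2 and 3, where LPS 3 was not the highest. The coding transcripts INSIG1-202 and INSIG1-206 averaged 1.15 and 1.10 FPKM over the 6 libraries. FADS2 was split among several transcripts. The largest were FADS2-202, at 26.8, 5.11 and 41.1 FPKM in LPS 1, 2 and 3, against 37.6, 21.3 and 22.6 FPKM in control 1, 2 and 3, and FADS2-201, at 24.2, 4.42 and 34.1 FPKM in LPS 1, 2 and 3, against 15.5, 1.59 and 1.34 FPKM in control 1, 2 and 3. In LPS 2 the leading transcript was FADS2-209, at 0.352, 20.9 and 1.37 FPKM in LPS 1, 2 and 3, against 0.875, 0.544 and 0.501 FPKM in control 1, 2 and 3. An assembled FADS2 transcript stood at 3.07, 0.520 and 18.9 FPKM in LPS 1, 2 and 3, against 3.46, 4.89 and 2.06 FPKM in control 1, 2 and 3, highest in LPS 3. SCD has a single listed transcript, so its values do not depend on such a split. Protein-coding transcripts held 25.6% of the FPKM of SCAP, 29.6% of TM7SF2, 38.5% of SREBF1 and 43.4% of ACSS2, the 4 genes below 50%.

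**Figure D4:**
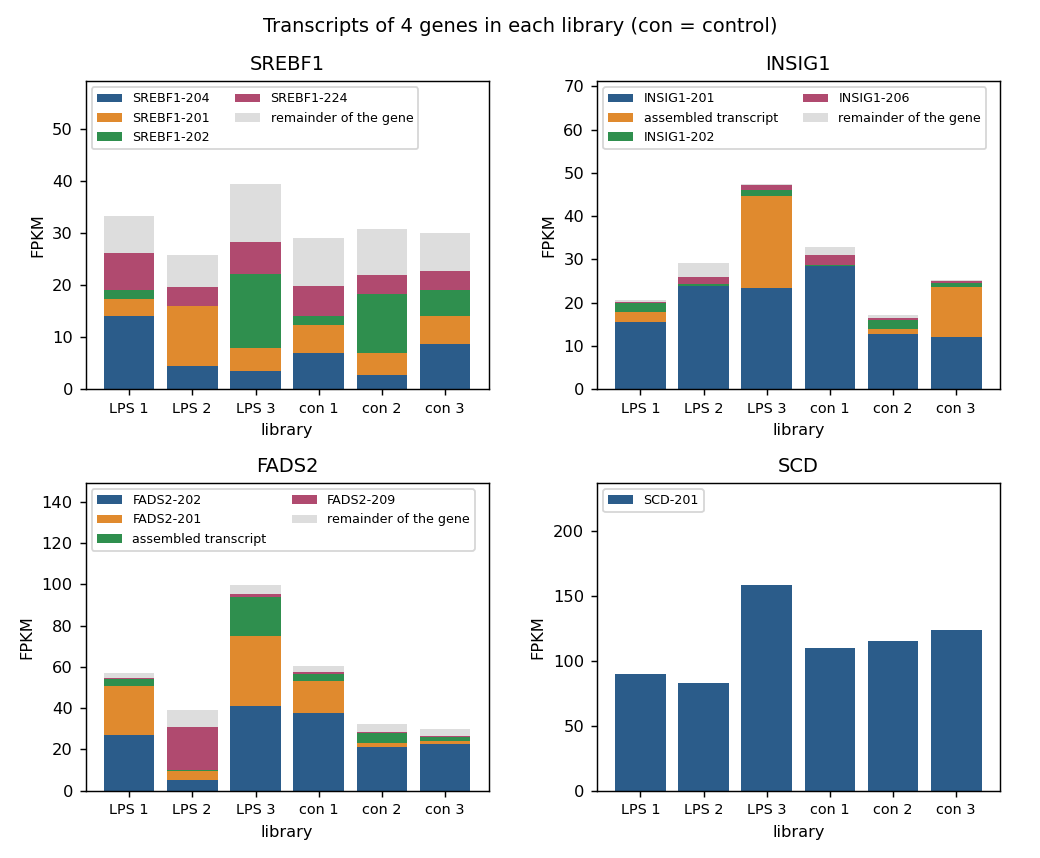
FPKM of up to 4 leading transcripts (colours) and of the rest of the gene (grey), stacked, in each library for SREBF1, INSIG1, FADS2 and SCD. The leading SREBF1 transcript changes between libraries of the same group, an assembled INSIG1 transcript is high in LPS 3 and control 3, and SCD is a single transcript.

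A wider list of 95 other lipid genes was described beside the 35, and 81 of its genes were tested. Of these, 0 passed the adjusted threshold by limma, and at an unadjusted p under 0.05 there were 2 higher, against 5.13% of all genes, and 6 lower, against 5.26%. The median log2 change was −0.0065, and LPS 3 was the highest library in 20 of 81, or 24.7%, close to the 25.7% of all genes. ABCG1, which exports cholesterol as ABCA1 does, stood at 9.03, 8.62 and 7.95 FPKM in LPS 1, 2 and 3, against 5.47, 6.85 and 4.56 FPKM in control 1, 2 and 3 (log2 change 0.58, 95% interval 0.21 to 0.94, limma adjusted p = 0.312). OSBPL5, a lipid transfer protein, stood at 17.2, 17.1 and 16.6 FPKM in LPS 1, 2 and 3, against 11.5, 10.0 and 13.7 FPKM in control 1, 2 and 3 (log2 change 0.52, 95% interval 0.22 to 0.82, limma adjusted p = 0.267). In both, all LPS values were above all control values. NR1H3, the liver X receptor alpha, stood at 2.98, 1.89 and 1.85 FPKM in LPS 1, 2 and 3, against 3.64, 3.41 and 4.96 FPKM in control 1, 2 and 3 (log2 change −0.72, 95% interval −1.21 to −0.24, limma adjusted p = 0.335). ME1, the malic enzyme that supplies NADPH, stood at 8.20, 7.82 and 9.46 FPKM in LPS 1, 2 and 3, against 10.5, 12.2 and 12.8 FPKM in control 1, 2 and 3 (log2 change −0.46, 95% interval −0.75 to −0.16, limma adjusted p = 0.318). HSD17B12, a ketoacyl-CoA reductase of fatty acid elongation, stood at 27.7, 25.2 and 20.8 FPKM in LPS 1, 2 and 3, against 33.1, 33.8 and 33.0 FPKM in control 1, 2 and 3 (log2 change −0.44, 95% interval −0.72 to −0.16, limma adjusted p = 0.312). CAV1, the caveolar coat protein, stood at 119, 117 and 119 FPKM in LPS 1, 2 and 3, against 141, 148 and 269.9 FPKM in control 1, 2 and 3 (log2 change −0.59, 95% interval −1.13 to −0.049, limma adjusted p = 0.447). Control 3 of CAV1 was far above the rest, and without it the log2 change was −0.29. In NR1H3, ME1, HSD17B12 and CAV1 all LPS values were below all control values. Groups did not overlap in 17 of the 81 genes, against 17.4% of all genes tested.

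By subgroup, the counts at an unadjusted p under 0.05 were 0 of 10 for SREBP processing and sterol-regulated degradation and 1 lower of 7 for further cholesterol synthesis and sterol-responsive genes. That 1 gene was HSD17B12, which was put in this list although its role given above is in fatty acid elongation. They were 1 higher and 1 lower of 8 for liver X receptor and efflux genes, 1 higher and 1 lower of 14 for storage and traffic, 3 lower of 31 for further fatty acid and glycerolipid synthesis and 0 of 11 for fatty acid oxidation. LPS 3 was highest in 4 of 10, 1 of 7, 3 of 8, 3 of 14, 7 of 31 and 2 of 11 of them.

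Some levels are uncertain because genes share their position. Of the 35 genes, 25 overlap another annotated gene and 19 overlap one that averaged 1 FPKM or more, while the counting strand is not given in the sources used here. In the coordinates of the table, which fit GRCh38, FADS2 spans chromosome 11 from 61792980 to 61867354 on the plus strand and FADS1 from 61799625 to 61867466 on the minus strand. ACAT2 overlaps TCP1, which averaged 38.6 FPKM on the other strand, MVK overlaps MMAB (7.19 FPKM) and IDI1 overlaps WDR37 (7.95 FPKM). TM7SF2 overlaps VPS51, at 20.6 FPKM on the same strand. SREBF1 spans chromosome 17 from 17798107 to 17837011 and overlaps RAI1 (9.23 FPKM) on the other strand. The 15 named pseudogenes of FDPS, HSD17B7, SCD, FADS2 and CYP51A1 were each listed at a mean of 0.370 FPKM or less.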

How the data were processed

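RNA-seq was measured in 6 libraries, 3 with LPS and 3 controls. The deposited tables hold FPKM calculated by the authors, with 1 column per library. Per the submitters' processing notes the tools were HISAT2 and StringTie, with no version, and the build was the mouse build mm9, although the deposited tables carry human Ensembl identifiers. All 35 genes were found in GENCODE 29 (GRCh38), 16 with the same start and end. FPKM carries no counts, so no interval for counting error is given. The 35 genes, the lists and the tests were chosen with earlier results of these data known.

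Genes and protein-coding transcripts with a mean of at least 0.5 FPKM were fitted with limma 3.58.1 under R 4.3.3, on log2(FPKM + 0.5), with group as the only term, eBayes with a mean-variance trend, two-sided p-values and Benjamini-Hochberg adjustment over each whole table. The procedure was tested on simulated data. The planted changes were larger than any seen in the genes described, and the noise was independent between libraries. That simulation therefore does not cover small changes or a shift shared by many genes of a library. Among the 35 genes, values in every library are given for those past a threshold or without overlap, the regulators, ABCA1 and the 2 most abundant per list. Other genes and transcripts shown in full were chosen after their values were seen. Of the other lipid genes, up to 4 rises and 4 falls at an unadjusted p under 0.05 with the largest changes are named. Lists have no test and are described by counts and medians. The long noncoding table was not used. Alternatives were pseudocounts of 0.1 and 1, no filter or a minimum of 1 FPKM, median-of-ratios rescaling, quantile normalization, a replicate block, the table of all annotated genes, and leaving out each library.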

Additional observations from a re-analysis of the deposited data

How the results depend on the processing

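The count of 0 among the 35 genes at an adjusted p under 0.05 held under the pseudocounts, filters, rescaling, quantile normalization, replicate block and omissions run, with limma adjusted p-values of at least 0.358. The table of all annotated genes was run for the 30 SREBF2-type and SREBF1-type genes, with 0 called and medians of 0.10 and 0.053. Apart from leaving out a library, 243 of 244 log2 changes of the 35 genes kept their direction, the exception being NPC1 under quantile normalization (−0.0017). Leaving out a library turned the direction in 35 of 210 values, in 22 genes, and 15 of the 35 turned values came without LPS 3. The log2 changes then ranged from −0.20 to 0.18 for MVK, −0.017 to 0.45 for MVD, −0.00020 to 0.31 for FDPS, −0.13 to 0.20 for SQLE, −0.051 to 0.23 for LSS, −0.17 to 0.052 for CYP51A1, −0.035 to 0.24 for MSMO1, −0.26 to 0.13 for HSD17B7, −0.033 to 0.59 for EBP, −0.63 to 0.13 for SC5D, −0.22 to 0.061 for DHCR7, −0.18 to 0.10 for NPC1, −0.049 to 0.14 for ACLY, −0.036 to 0.57 for ACSS2, −0.19 to 0.045 for ACACA, −0.43 to 0.033 for SCD, −0.22 to 0.26 for FADS1, −0.16 to 0.18 for LPIN1, −0.026 to 0.28 for SREBF1, −0.024 to 0.10 for SREBF2, −0.19 to 0.026 for SCAP, −0.18 to 0.25 for ABCA1, −0.24 to 0.59 for INSIG1-202, −0.22 to 0.55 for INSIG1-206, −0.31 to 0.51 for SREBF1-201, −2.35 to 0.087 for SREBF1-202 and −0.018 to 0.093 for SREBF2-201. The SREBF2-type median ranged from −0.023 (without LPS 3) to 0.24 (without LPS 2) and the SREBF1-type median from −0.16 to 0.18 under the same omissions. By limma, the 7 calls among all genes became 0 without a filter (1563 at an unadjusted p under 0.05), 0 with the replicate block (1451), 0 without LPS 2 (1214), 0 without control 2 (1048), 2 without LPS 3 and 4 without control 1, in a range from 0 to 8. The 26 transcript calls became 15 without a filter, where 52008 transcripts were tested, 0 with the replicate block (1171 at an unadjusted p under 0.05), 43 without LPS 1, 41 without LPS 3, 49 without control 2 and 43 without control 3, in a range from 27 to 49 on leaving out a library. Where not stated, the cause was not tested. Same-numbered libraries share a number in the labels and nothing else is stated. Their deviations from the group means correlated at 0.0175, 0.105 and 0.0605 across genes, and 5 of 6 libraries correlated best with their own number. Since not every correlation exceeded 0.1, the numbers were not taken to pair the libraries. That rule does not exclude a pairing. Of all genes tested, 25.7% were highest in LPS 3 and 24.6% in control 3, against 10.9% to 14.1% in each other library. The lowest library was LPS 2 in 21.9% and control 2 in 20.1%, against 12.6% to 17.2% for each other library. What same-numbered libraries share was not tested. Depth is unknown, and 3 libraries per group limit what can be seen to the intervals given.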

Other observations

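The 21 genes with CCAAT letters in any of their promoter entries had a level in LPS 3 of 1.44 times the median of the other 5 libraries (median over genes, range 0.693 to 2.53), and LPS 3 was the highest library in 18 of them. For the 10 matched genes without these letters (PMVK, LPIN1, INSIG2, SCAP, ELOVL6, CYP51A1, ABCA1, FADS1, SREBF1 and NPC1) the median was 1.29 (range 0.772 to 1.76), and LPS 3 was highest in 6. Over all genes tested that median was 1.05, and LPS 3 was highest in 25.7%. The same values for all genes with and without the letters were not computed. These sets also differ by list. Of the 21 genes, 15 are SREBF2-type, while SREBF1, SCAP, INSIG2 and ABCA1 are among the 10 without the letters. Letters and list are therefore mixed in these medians. Each list holds genes of both kinds, with the letters in 15 of 18 SREBF2-type and 5 of 8 SREBF1-type genes. Medians within a list were not computed. The comparison of the 21 and the 10 genes was made after seeing the data and was not tested.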
